A study of Mus musculus with 3 samples.

Results

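Genes of glucose uptake, glycolysis and glycogen were compared in gastrocnemius, a mostly fast-twitch calf muscle, of mice with an inducible Akt, on 3 Affymetrix Mouse 430 2.0 arrays. Akt is a protein kinase that insulin and IGF1 switch on. Per the labels, all mice were Akt_Cre transgenic on a C57BL/CD1 background and made, in skeletal muscle only, Akt joined to an oestrogen-binding domain, which tamoxifen stabilises and after which the muscle enlarges. The 3 groups were transgenic mice given oil for 24 h, tamoxifen for 24 h or tamoxifen for 48 h, and for each of them RNA of 3 to 4 mice was combined on 1 array, so the spread between mice was not measured. The sources used here do not give the promoter that drives the transgene, the mice's age or the role of Cre. The 38 genes were chosen by name for their part in the pathway, with earlier results of these data known. Every probe set (a group of short probes for 1 transcript) annotated to 1 of them alone was taken: 75 probe sets of 35 genes. Gpi1, Eno1 and Pfkfb1 were not analysed here, since the annotation names no probe set for them alone. A filter on low levels (a mean percentile rank over the arrays of at least 0.5) kept 66 probe sets of 34 genes, out of 11093 genes measured, and the only probe set of Ppp1r3a (11.1 on oil, 4.42 at 24 h and 7.61 at 48 h) did not pass it.

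Muscle takes up glucose through the transporters GLUT4, which insulin and Akt bring to the cell surface, and GLUT1, which stays there. Hexokinase traps it as glucose 6-phosphate, which is either burned through glycolysis to pyruvate and lactate or stored as glycogen. Phosphofructokinase is the committed step of glycolysis, and its activator, fructose 2,6-bisphosphate, is made and broken down by the PFKFB enzymes. Akt acts on several of these steps by phosphorylating proteins, which RNA levels do not show.

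Values below are scaled intensities, the deposited signals after each array was brought to the same median. Since no group has a second array, no test was possible, so higher and lower refer to the arrays, and a gene is called only at a ratio of 2-fold or more, which is 1 on the log2 scale. Each gene is read on its brightest kept probe set, and levels of different probe sets are not compared. Kept probe sets of 1 gene differed in their log2 ratio by a median of 0.50 at 24 h and 0.44 at 48 h over 5002 genes with 2 or more, and by 0.24 and 0.19 over the 17 such genes here. No 48 h oil array and no tamoxifen array without the fusion were analysed here, so time, tamoxifen itself and Akt cannot be told apart at 48 h, nor tamoxifen and Akt at 24 h. Whole muscle was measured, so fewer cells of a type and less RNA per cell cannot be told apart. All 11 fast-fibre markers listed were measured, with summed levels of 94667 on oil, 91803 at 24 h and 93927 at 48 h. The 8 slow-fibre markers summed to 10574, 11915 and 8911. The ratio of 3′ to 5′ control probe sets, a sign of RNA integrity, was 0.846, 0.867 and 0.826 for Gapdh and 0.976, 0.951 and 1.10 for beta-actin, in the order oil, 24 h, 48 h.

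Tamoxifen for 24 h was set against oil for the same time, the only comparison matched for time. Ppp1r3c, which brings a phosphatase to glycogen, and Tbc1d1, which holds GLUT4 inside the cell, were past 2-fold higher, and no gene was past 2-fold lower. That is 2 of 34 genes higher and 0 lower, where 2.35% of all 11093 genes were called higher and 2.48% lower. The lactate transporters Slc16a3 and Slc16a1 were just under the limit, at log2 ratios of 0.95 and 0.86. The median log2 ratio of the 34 genes was 0.01, against 0.04 over all genes. A share of 76.5%, against 75.2% of all genes, lay within 0.5 of oil, which is 26 of the 34. The other 8 were Ppp1r3c, Tbc1d1, Slc16a3 and Slc16a1 above it and, below it, Pfkfb3 (-0.53), the phosphofructokinase subunit Pfkp (-0.67), the glucose transporter Slc2a1 (-0.68) and the phosphoglucomutase Pgm2 (-0.73).

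Tamoxifen for 48 h was then compared with that oil array. Slc16a3, which exports lactate, was 4.15-fold higher and Tbc1d1 2.68-fold higher, and Pfkfb3, which makes the activator of phosphofructokinase, was 5.29-fold lower. The calls were 2 of 34 genes higher and 1 lower, where 3.72% of all genes were called higher and 2.71% lower. The median was 0.04, against 0.0070 over all genes, and 28 of 34 genes lay within 0.5 of oil, a share of 82.4% against 71.1% of all genes. Ppp1r3c was back within 2-fold, at 0.42. Both comparisons use the 1 oil array, so a deviation of that array enters both.

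Between the tamoxifen arrays, 48 h was set against 24 h. Slc16a3 was called higher (2.14-fold) and Pfkfb3 lower (3.66-fold), 1 gene each way of 34, where 1.8% of all genes were called higher and 1.42% lower. The second probe set of Pfkfb3 was 1.55-fold lower (-0.64 in log2), under the limit. The median log2 ratio was 6.07e-05, against -0.02 over all genes. Within 0.5 lay 30 of 34 genes, a share of 88.2% against 82.5% of all genes.

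**Figure D1:**
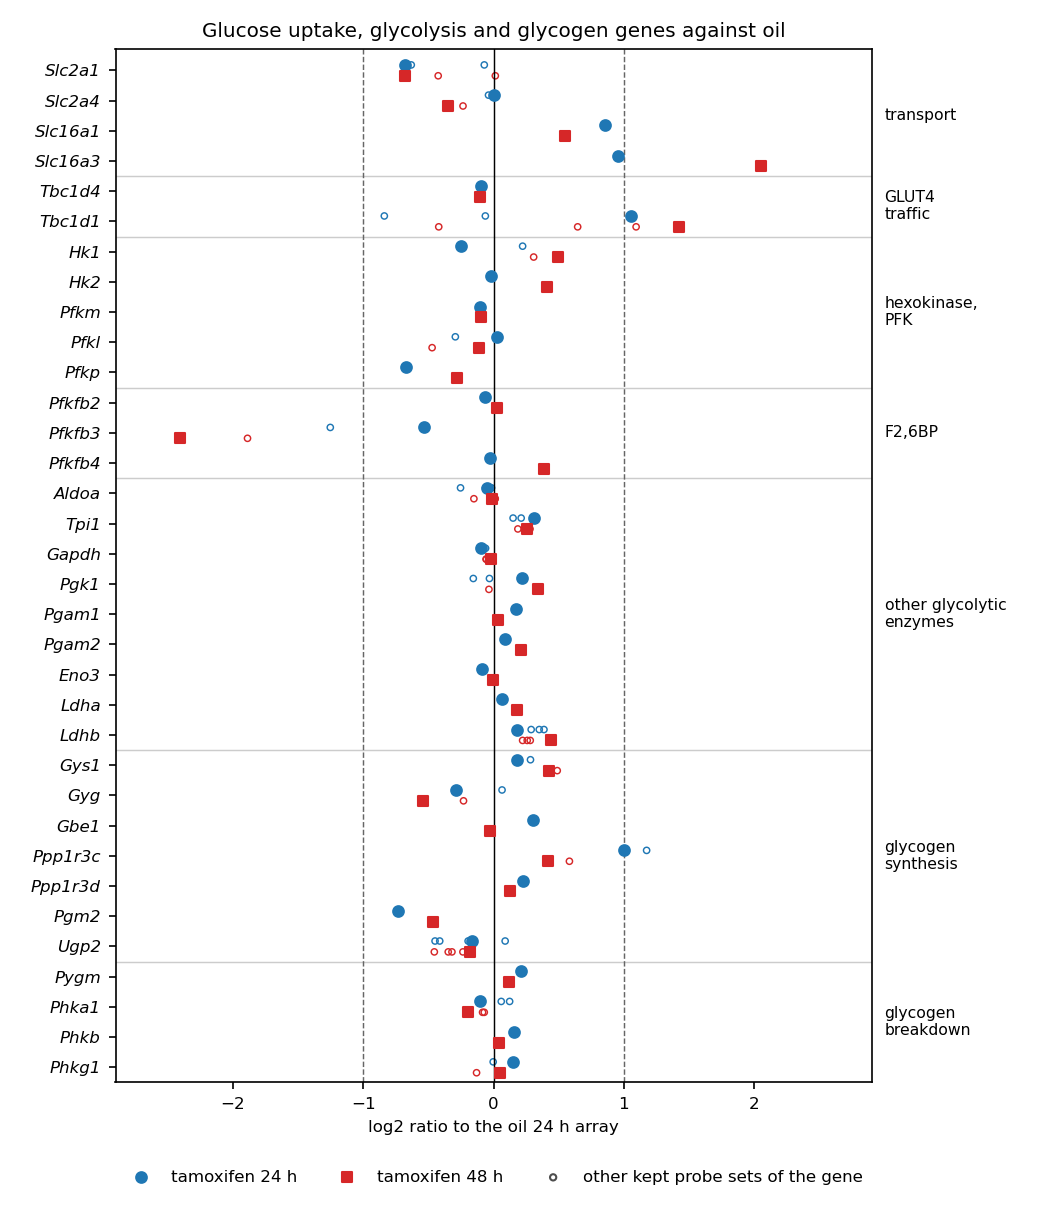
Log2 ratio of each measured gene to the oil 24 h array (horizontal axis), grouped by role, for tamoxifen 24 h (circles) and 48 h (squares), with open marks for the gene's other kept probe sets and dashed lines at 2-fold. F2,6BP stands for fructose 2,6-bisphosphate. Most marks lie between the lines, and Slc16a3 at 2.05 and Pfkfb3 at -2.40 are farthest out at 48 h.

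Glucose and lactate transport went in different directions from gene to gene. Slc16a3 encodes MCT4, the monocarboxylate transporter by which glycolytic fibres release lactate. On its 1 kept probe set it read 211 (oil), 408 (24 h) and 875 (48 h). The level was higher on each later array, and its ratio at 48 h ranked 47th highest of 11093 genes. The 6 fibroblast markers, all measured, summed to 13994, 12520 and 12834, and they differed among themselves. Col1a1, a collagen chain, read 536, 943 and 1211, called higher at 48 h, and Col3a1 read 3560, 3605 and 3843. The second probe set of Col1a1 was nearly level with oil, at log2 ratios of 0.08 at 24 h and 0.13 at 48 h. The other 4, Dcn, Col1a2, Lum and Pdgfra, were below oil at both times. The macrophage markers are given with Pfkfb3, and the part of these cells in the Slc16a3 levels was not tested. Slc16a1, encoding MCT1, which takes lactate up or lets it out, read 435, 789 and 637. It was highest at 24 h, 1.81-fold above oil, and 1.46-fold above at 48 h, so it was not called in either comparison. Both carriers need basigin, encoded by Bsg, to reach the membrane, and Bsg read 2331, 2493 and 2221.

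Neither glucose transporter was called. Slc2a4, encoding the insulin-responsive GLUT4, read 1949, 1951 and 1532 in the same order, nearly level at 24 h, where the sign of its ratio depended on the setting. Its second probe set read 1150, 1119 and 978, so both were lowest at 48 h, at log2 ratios of -0.35 and -0.23 to oil. Adipocytes also express GLUT4: 4 of 7 adipocyte markers were measured and summed to 4604, 5270 and 3920. Most of that was Fabp4, at 3922, 4432 and 3362, whose 4 probe sets had log2 ratios of -1.55 to 0.19 at 24 h. Adipoq read 564, 673 and 469, and Retn 78.7, 79.9 and 38.6, called lower at 48 h. Cidec read 39.6, 85.1 and 50.6, called higher at 24 h and above oil at 48 h. The part of adipocytes in the Slc2a4 levels was not tested. Slc2a1, encoding GLUT1, read 222, 138 and 138, which is 1.60-fold lower at both times. Its other probe sets read 95.4, 61.6 and 71.1, lower as well, and 44.3, 42.1 and 44.7, which are nearly level. GLUT1 is also a transporter of endothelial cells and nerve sheaths: the 7 endothelial markers were all measured and summed to 1199, 1092 and 864. At 24 h 4 of the 7 (Pecam1, Cdh5, Kdr and Tie1) were above oil, with a median log2 ratio of 0.11 over the list. The 2 probe sets of Cdh5 disagreed at that time, at 0.60 and -0.57. Vwf read 298, 174 and 149. The median over the list at 48 h was -0.39. For nerve, 3 of 5 nerve and Schwann markers summed to 1349, 1156 and 1162. Most of that was Mbp, at 1280, 1101 and 1112. Its 6 probe sets had log2 ratios of -1.03 to -0.16 at 24 h and -1.38 to -0.20 at 48 h. The part of these cells in the Slc2a1 levels was not tested.

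TBC1D1 and TBC1D4 (also called AS160) are Rab GTPase-activating proteins that keep GLUT4 vesicles inside the cell until Akt or AMPK phosphorylates them. Tbc1d1 on its brightest probe set read 96.9, then 202 at 24 h and 260 at 48 h, 2.08-fold and 2.68-fold above oil. A second probe set went the same way and read 39.5, 81.5 and 84.2. The other 2 did not: one read 20.5, 19.6 and 32.1, and the other 84.2, 47.1 and 63.0, which is lower than oil at both times (log2 ratios of -0.84 and -0.42). The 4 probe sets spread over 1.89 in log2 ratio at 24 h, the widest range among the 17 genes with more than 1 kept probe set. On the mean of all 4, Tbc1d1 was at 0.30 at 24 h and 0.69 at 48 h, so its call rests on the choice of probe set. Tbc1d4 read 87.1, 81.5 and 81.0, nearly the same on all arrays.

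**Figure D2:**
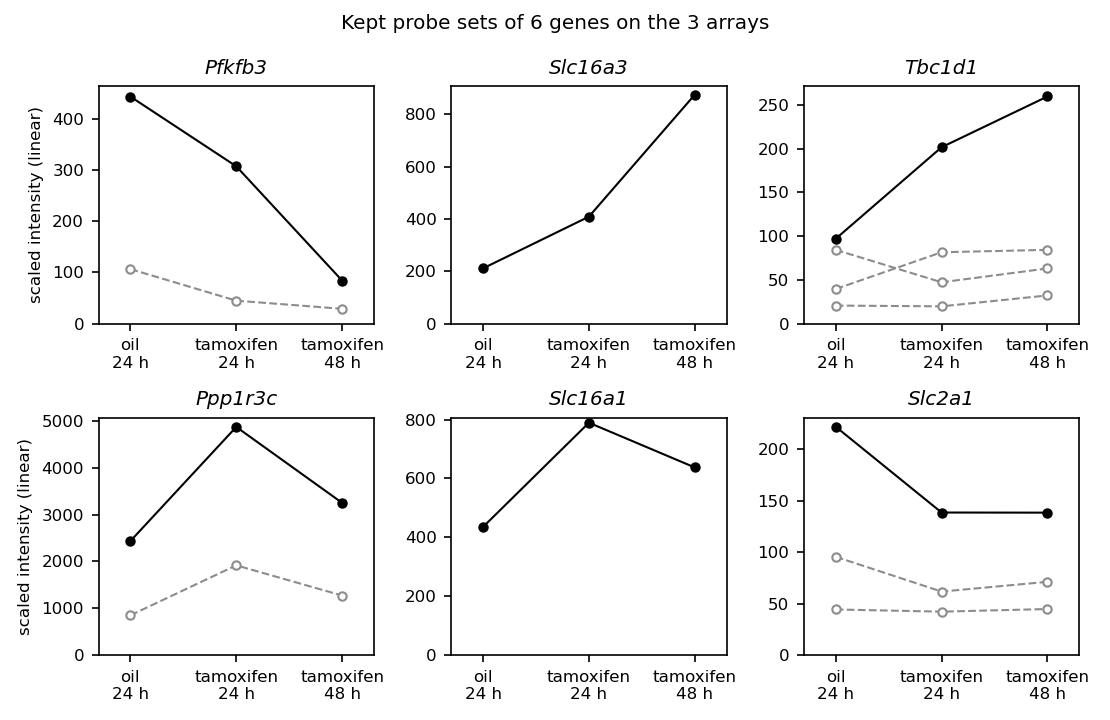
Scaled intensity (linear vertical axis from 0) of each kept probe set of Pfkfb3, Slc16a3, Tbc1d1, Ppp1r3c, Slc16a1 and Slc2a1 on the oil 24 h, tamoxifen 24 h and tamoxifen 48 h arrays; the filled black line is the probe set the gene is read on and the open grey lines are its others. Both probe sets of Pfkfb3 are lowest at 48 h, Ppp1r3c and Slc16a1 are highest at 24 h, and the 4 lines of Tbc1d1 do not run together.

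The entry and committed steps of glycolysis held no called gene among 5. In either direction 4.83% of all genes were called at 24 h and 6.44% at 48 h. Few or no calls in groups this small, here and below, thus say little about the group. Hk2, the insulin-responsive hexokinase of muscle, read 1239, 1222 and 1651, 1.33-fold above oil at the later time. Hk1, the hexokinase found in most tissues, read 86.2, 72.7 and 121, also highest at 48 h. Its other probe set read 32.2, 37.6 and 39.9. Pfkm, the phosphofructokinase subunit of muscle, read 6260, 5838 and 5843. Pfkl and Pfkp, the subunits named for liver and platelets, were read at 71.2, 72.7 and 66.1 and at 59.6, 37.4 and 49.0. Pfkp had the lowest ratio of the 5 at 24 h (-0.67 in log2). The 2 Pfkp probe sets under the level filter read 13.0, 5.93 and 6.47, and 9.08, 4.90 and 1.05. On the tamoxifen arrays these lie close to or under 4.05, the floor to which low signals were raised. Their direction is therefore not used.

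The PFKFB enzymes differed from each other. Pfkfb3, whose kinase activity far exceeds its phosphatase activity, read 444 with oil, 307 with 24 h and 84.0 with 48 h of tamoxifen. Its second probe set read 106, 44.7 and 28.8, so oil was highest and 48 h lowest on both. The log2 ratios of the 2 probe sets were -0.53 and -1.25 at 24 h and -2.40 and -1.89 at 48 h. The larger step lay after 24 h on the brightest probe set and before 24 h on the other. The ratio of Pfkfb3 ranked 11th lowest of 11093 genes at 48 h against oil and 9th lowest at 48 h against 24 h. Pfkfb4 read 231, 227 and 302 and Pfkfb2 42.8, 40.9 and 43.6, neither called. Neutrophils, macrophages and endothelial cells also express Pfkfb3. The neutrophil markers S100a8 and S100a9, the 2 of 6 that were measured, summed to 146, 94.2 and 41.1. The 6 macrophage markers, all measured, summed to 1925, 1991 and 1682, with Cd163 at 188, 142 and 89.3 (2.10-fold lower at 48 h) and Cd68 at 71.0, 87.7 and 106. The endothelial markers are given above. The part of these cells in the Pfkfb3 levels was not tested.

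Of 9 other glycolytic enzymes measured, none was called in any comparison. Their log2 ratios to oil lay between -0.10 and 0.31 at 24 h, and at 48 h between -0.02 and 0.44. The aldolase gene Aldoa read 9528, 9183 and 9444. Tpi1, the triose phosphate isomerase, read 5817, 7199 and 6963, higher than oil at both times on all 3 of its probe sets. Gapdh, often used as a reference gene, was read on the manufacturer's control probe sets, the only ones annotated to it alone, at 8961, 8385 and 8824. Pgk1, which makes the first ATP of the pathway, read 3685, 4290 and 4660 on its brightest probe set and 3691, 3613 and 3603 on another, so these probe sets differ in direction. The muscle mutase Pgam2 read 5472, 5815 and 6325, and Pgam1, the form of other tissues, 122, 138 and 125. Eno3, the muscle enolase, read 8899, 8368 and 8892.

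Of the lactate dehydrogenases, Ldha, the subunit that favours lactate formation, read 6080, 6345 and 6907. Ldhb, the subunit of heart and oxidative fibres, read 791, 899 and 1074 on its brightest probe set. All 4 probe sets of Ldhb were above oil at both times, by 0.18 to 0.39 in log2 at 24 h and 0.22 to 0.44 at 48 h. None reached 2-fold. Pkm, the muscle pyruvate kinase, was not among the 38 genes and read 3224, 3567 and 4156.

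Ratios were smaller at high levels. The highest scaled intensity on any array was 11388, and 8 of the 34 genes had a mean level of 5000 or more. None of the 62 genes at that level was called in any comparison, and the largest log2 ratio among them in either direction was 0.32 at 24 h and 0.44 at 48 h. Among the 666 genes at 1000 or more, 2.25% were called at 24 h and 3.75% at 48 h in either direction. The shares were 2.72% and 4.82% of the 4714 genes from 100 to under 1000, and 6.88% and 8.09% of the 5713 genes under 100. In tamoxifen 48 h against 24 h they were 0.601%, 1.4% and 5.02%, from the highest level to the lowest. Of the 34 pathway genes, 16, 11 and 7 lay in these ranges, so they lay at higher levels than the measured genes as a whole. The shares within 0.5 in log2 given above, in all comparisons, were not matched for level. They do not show that the pathway was steadier than other genes. Saturation of the brightest probe sets was not tested.

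**Figure D3:**
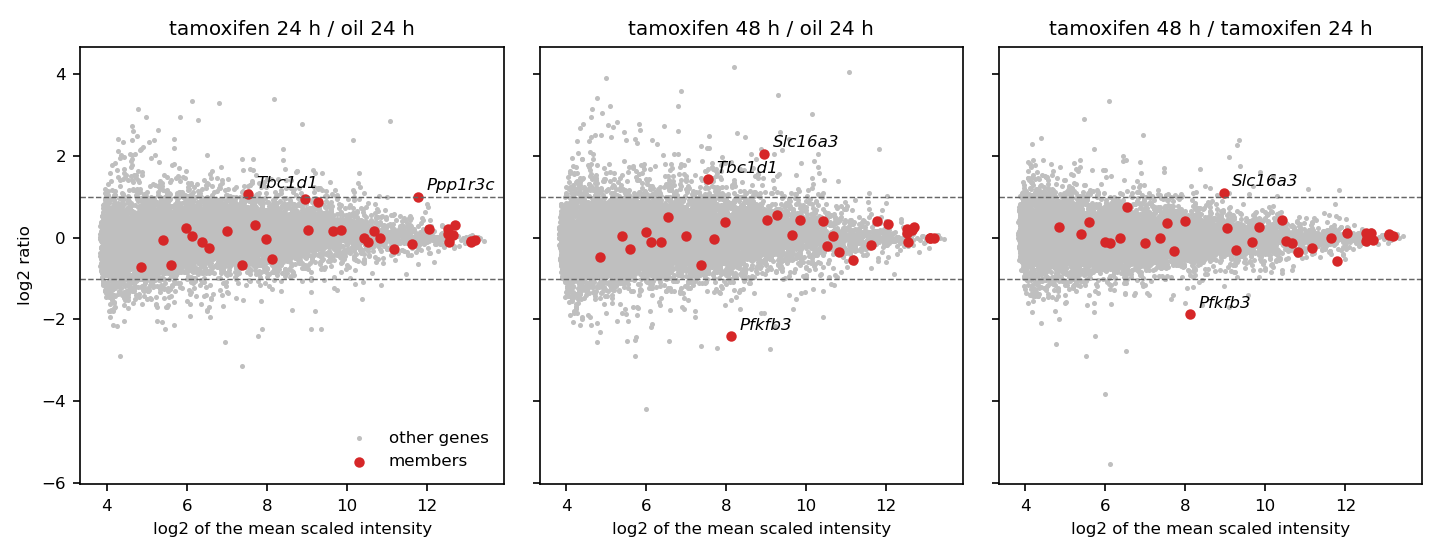
Log2 ratio (vertical axis) against log2 of the mean scaled intensity over the 3 arrays (horizontal axis) for all 11093 genes in grey and the 34 measured pathway genes in red, 1 panel per comparison, with dashed lines at 2-fold. Ratios spread more widely at low intensity, and the named genes are those of the pathway past 2-fold.

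Of 7 genes of glycogen synthesis measured, 1 was called, and at 24 h only. Ppp1r3c encodes PTG, a scaffold that brings protein phosphatase 1 to glycogen, where it activates glycogen synthase. It read 2438, 4878 and 3254. Its second probe set read 850, 1918 and 1272, so both were highest at 24 h and between the others at 48 h. The ratio was 2.00-fold at 24 h on the brightest probe set, at the limit itself, and 1.17 in log2 on the other. Of the 666 genes with a mean level of 1000 or more, 1.65% were called higher at 24 h. Ppp1r3d, a related targeting subunit, read 58.4, 68.3 and 63.9.

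Gys1, the muscle glycogen synthase, read 453, 512 and 607, and its second probe set 262, 319 and 368. Both rank the arrays in the same order, at 0.42 and 0.49 in log2 against oil at 48 h. Gyg, the protein primer of the glycogen granule, read 2762, 2258 and 1895, 1.46-fold below oil at 48 h, with its second probe set at 1639, 1715 and 1398. Gbe1, the branching enzyme, read 195, 241 and 192. Ugp2, which makes UDP-glucose, the donor of glucose units, read 3442, 3063 and 3036, and all 5 of its probe sets were below oil at 48 h (log2 ratios from -0.45 to -0.18). Pgm2, a phosphoglucomutase, read 37.1, 22.4 and 26.9. Pgm1, the phosphoglucomutase that interconverts glucose 1-phosphate and glucose 6-phosphate in muscle, was not among the 38 genes and read 2445, 3270 and 3473. Its second probe set was below oil, at log2 ratios of -0.36 at 24 h and -0.19 at 48 h. The symbols Pgm1 and Pgm2 follow the platform annotation.

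The genes of glycogen breakdown were within 2-fold throughout. Pygm, the muscle glycogen phosphorylase, read 5458, 6304 and 5920. The subunits of phosphorylase kinase, which switches phosphorylase on, were Phka1 (1576, 1463 and 1373), Phkb (1556, 1738 and 1598) and Phkg1 (771, 857 and 799). The 4 genes spanned log2 ratios of -0.11 to 0.21 at 24 h, and of -0.20 to 0.12 at 48 h. All 4 were slightly lower at 48 h than at 24 h, with log2 ratios of -0.12 to -0.09.

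Other genes of these pathways, from 4 lists written from general knowledge but with earlier results of these data known, numbered 55 measured of 72. At 24 h 2 of them were called higher and none lower, a share of 3.64% against 4.83% of all genes in either direction. At 48 h 3 were called higher and none lower, 5.45% against 6.44%. In tamoxifen 48 h against 24 h 1 was called lower and none higher, 1.82% against 3.22%. The shares are near or below those of all genes. None of 10 other glycolysis genes was called against oil at either time, and at 48 h the ratio farthest from 0 was that of Gpd1, the glycerol 3-phosphate dehydrogenase that draws on a glycolytic intermediate. It read 821, 1286 and 1537, and its 3 kept probe sets disagreed, with log2 ratios of -1.69 to 0.90 at 48 h.

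Stbd1 had the largest ratio of the 55 in both comparisons with oil. It encodes a protein that binds glycogen through a starch-binding domain and anchors it to membranes. Its 1 kept probe set read 241, 714 and 1056, 2.96-fold and 4.38-fold above oil. The others called were Slc2a10, encoding GLUT10, at 9.16, 18.7 and 27.5, a low level, and Vamp2, a fusion protein of GLUT4 vesicles, at 68.1, 102 and 141 (called at 48 h). The second probe set of Vamp2 was under the limit at 48 h, at a log2 ratio of 0.68. Slc2a3, encoding GLUT3, read 101, 120 and 59.5 and was called lower in tamoxifen 48 h against 24 h, at the limit (2.01-fold). Of 16 other glycogen genes measured, Stbd1 was the only one called against oil. Of 19 genes in the GLUT4 traffic list, which also holds the transcription factors Hif1a, Mlxip and Mlxipl, 1 was called, Vamp2. Rab10, a Rab of GLUT4 vesicles, read 1360, 1916 and 2302.

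**Figure D4:**
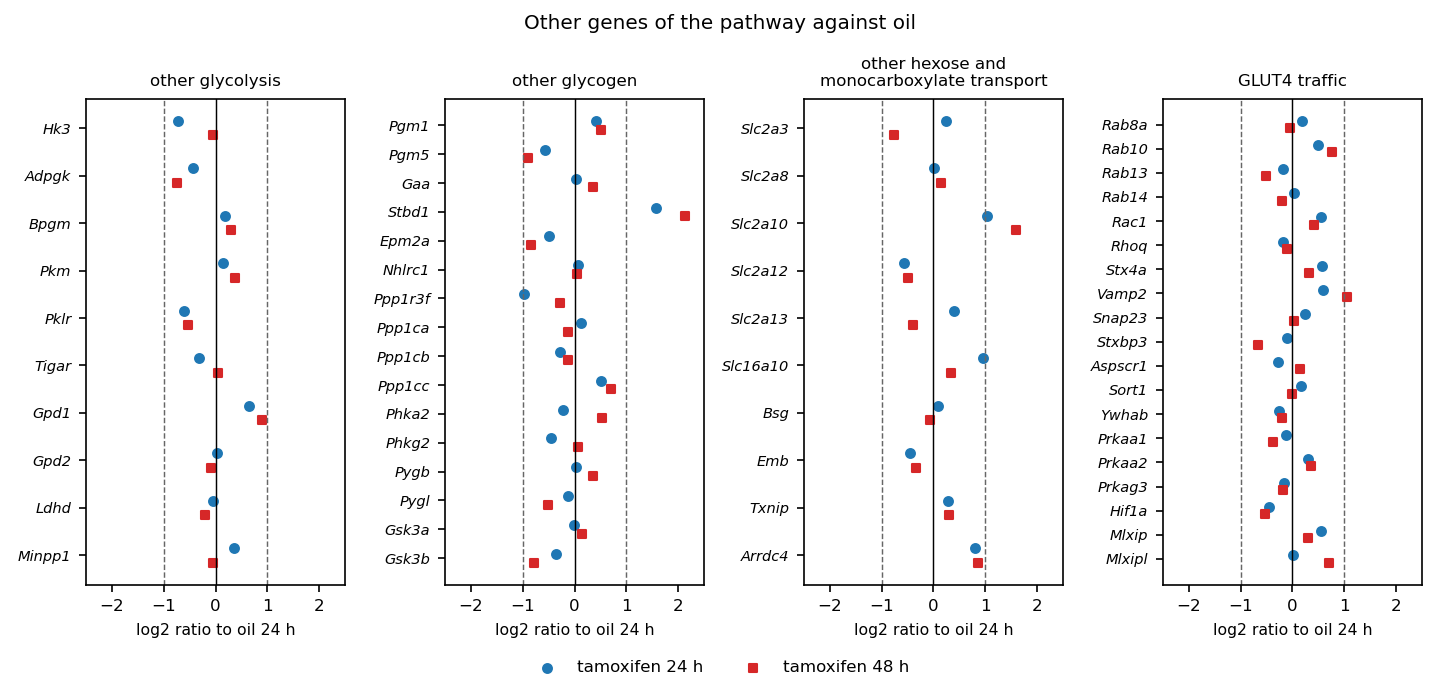
Log2 ratio to the oil 24 h array (horizontal axis) of 55 further genes in 4 lists, for tamoxifen 24 h (circles) and 48 h (squares), with dashed lines at 2-fold. Stbd1, at 1.57 and 2.13, is the farthest from 0.

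The promoters of Pfkfb3, Slc16a3 and Ppp1r3c are shown because these genes were past 2-fold against oil, at 48 h or 24 h, on both probe sets or the only one. The windows run from 250 bases before to 50 after an annotated start, from RefSeq on GRCm38.p6, and are written 5′ to 3′ on the gene's strand. Capitals mark ACGTG on either strand (CACGT on the other), the core of sites for hypoxia-inducible factors, which also lies within the E-box CACGTG. Pfkfb3 has 2 windows, at chr2:11502041-11502340 and chr2:11553880-11554179, both on the minus strand. Ppp1r3c lies at chr19:36736555-36736854 on the minus strand and Slc16a3 at chr11:120948817-120949116 on the plus strand.
Pfkfb3 window 1: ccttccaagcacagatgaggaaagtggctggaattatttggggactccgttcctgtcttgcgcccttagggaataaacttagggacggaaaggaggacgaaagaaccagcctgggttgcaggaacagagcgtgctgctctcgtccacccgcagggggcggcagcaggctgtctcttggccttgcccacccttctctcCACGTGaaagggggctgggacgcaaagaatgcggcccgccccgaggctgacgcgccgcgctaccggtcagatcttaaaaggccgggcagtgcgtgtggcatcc
Pfkfb3 window 2: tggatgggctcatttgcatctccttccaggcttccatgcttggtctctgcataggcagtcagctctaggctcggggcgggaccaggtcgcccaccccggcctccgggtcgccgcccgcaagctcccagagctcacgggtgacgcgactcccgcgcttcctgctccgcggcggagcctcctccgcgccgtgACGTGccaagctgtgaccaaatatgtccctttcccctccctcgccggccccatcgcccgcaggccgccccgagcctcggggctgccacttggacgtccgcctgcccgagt
Ppp1r3c: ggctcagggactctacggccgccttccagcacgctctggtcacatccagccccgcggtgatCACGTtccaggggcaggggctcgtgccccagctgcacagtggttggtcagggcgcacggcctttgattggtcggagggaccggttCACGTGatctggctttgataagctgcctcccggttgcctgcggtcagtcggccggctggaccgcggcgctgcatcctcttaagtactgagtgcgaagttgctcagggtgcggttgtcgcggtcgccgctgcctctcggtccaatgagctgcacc
Slc16a3: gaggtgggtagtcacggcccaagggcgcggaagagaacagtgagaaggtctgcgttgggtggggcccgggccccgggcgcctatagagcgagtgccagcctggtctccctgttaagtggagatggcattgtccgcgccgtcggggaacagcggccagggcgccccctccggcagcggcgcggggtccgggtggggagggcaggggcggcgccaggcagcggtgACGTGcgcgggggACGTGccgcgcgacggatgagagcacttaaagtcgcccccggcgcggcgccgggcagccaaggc

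Slc16a3 held 2 matches, 27 and 14 bases before the start. Pfkfb3 held 1 match in window 2, 60 bases before the start, and in window 1 a CACGTG 53 bases before it, which matches on both strands. Ppp1r3c held a CACGTG 104 bases before the start and another match 189 bases before it. Neither of the 2 windows of Tbc1d1 held one. The gene that was lower and genes that were higher thus hold the same letters. Over the measured pathway genes with a window in the table (33 of 34, all but Slc2a4), 23 of 45 windows held the core, or 51.1%. The share was 19.6% of all 32851 windows and 25.5% of 11620 windows of the genes measured here, whose median GC content was 60.7% against 62% for the pathway. The FoxO site GTAAACA, searched on both strands because Akt restrains FoxO factors, was in none of the 45 windows, in 3.65% of all windows and in 2.66% of the windows of the genes measured here. A match is a description of these letters and not a bound site, and the table gives no information on binding. Hif1a itself read 458, 334 and 319 on its brightest probe set. Its 3 kept probe sets had log2 ratios of -0.46 to 0.03 at 24 h and -0.85 to -0.22 at 48 h. The part of Hif1a in the levels of these genes was not tested.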

How the data were processed

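The 3 arrays' series table held 45101 probe sets with 1 deposited intensity per array, made by the authors on a linear scale; the sources used here do not give how probes were summarised, corrected for background or scaled. All sample columns were used. Of these, 64 were manufacturer's controls and were set aside except the 3 for Gapdh. Probe sets with a mean percentile rank of 0.5 or more over the arrays were kept (21807). Arrays were scaled to 1 median over kept probe sets (factors 1.01 for oil, 0.944 for tamoxifen 24 h, 1.05 for tamoxifen 48 h), floored at 4.05 (the 25th percentile) and put on log2. Gene names came from the platform annotation, and probe sets naming several genes were not read. The brightest kept probe set, by mean rank, stood for the gene. Every member was described; members past 2-fold, or with kept probe sets on both sides of 0 and 1 past 2-fold, were given with all their probe sets. The number of arrays limits the precision. The genes and lists were chosen with earlier results of these data known. The calculation was tested on simulated data in which all kept probe sets of a changed gene moved by the same fold. It was therefore not tested on probe sets that disagree. Work was done in Python 3.11.15 with pandas 2.3.3 and numpy 2.4.6, and 12 alternative settings were run, with 3 more added after seeing the data.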

Additional observations from a re-analysis of the deposited data

How the results depend on the processing

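Of the calls at 48 h against oil, those of Slc16a3 and Pfkfb3 held best. Over 11 alternatives of scaling, filter, floor and probe set, Slc16a3 stayed past 2-fold in 11 (log2 1.97 to 2.13) and Pfkfb3 in 11 (-2.47 to -2.14). Tbc1d1 did so in 10 (all but the mean over its probe sets, 0.69). Most alternatives read Tbc1d1 on the same probe set, at 24 h too, so they do not test the choice on which its call rests. At 24 h Ppp1r3c stayed past 2-fold in 6 (0.95 to 1.29) and Tbc1d1 in 8 (0.30 to 1.35), and Slc16a3, just under the limit, passed it in 3. Stbd1 stayed past 2-fold in 11 at both times, and Slc2a10, where it was compared, in 6 of 9 at 24 h and 7 of 9 at 48 h. No called value changed sign in these alternatives; ratios near 0, such as those of Slc2a4 at 24 h and Phkb at 48 h, did. The count of pathway genes higher at 24 h was 2, but 1 with quantile normalization, trimmed mean scaling, a filter at rank 0.75 or the mean over probe sets, 0 with loess or a pseudocount of 16, 3 unscaled or with a filter at rank 0.25, and 4 with no filter or a 1.5-fold rule. The count lower at 24 h was 1 with no filter or a filter at rank 0.25 (Ppp1r3a in each) and 3 with the 1.5-fold rule. At 48 h the mean over probe sets gave 1 higher, and the 1.5-fold rule 2 lower. In tamoxifen 48 h against 24 h the count higher was 0 unscaled or with no filter and 2 with the 1.5-fold rule. The pathway median at 24 h was 0.29 with no filter and 0.13 at rank 0.25, and in tamoxifen 48 h against 24 h it was -0.16 unscaled and -0.21 with no filter. The median over all genes moved likewise, to 0.19, 0.13, -0.18 and -0.14. These changes of filter also changed the probe sets that set the scaling. With the scaling factors kept, alternatives chosen after seeing the data, no filter and filters at rank 0.25 and 0.75 each gave 2 higher at 24 h, and the first 2 gave 1 lower (Ppp1r3a); the pathway median at 24 h was 0.0016 with no filter, and 1 gene was higher in tamoxifen 48 h against 24 h. Higher genes made up 48.7% of all calls at 24 h, 63.8% unscaled, 60.04% after quantile normalization and 58.6% after loess. The share was 41.6% with trimmed mean scaling, and 35.9% with no filter and the scaling factors kept. In tamoxifen 48 h against 24 h it was 56.0%, and 29.3% unscaled, 42.99% after quantile normalization or 67.8% with a filter at rank 0.75. It thus moved both ways with the setting. No paired analysis was possible because each group was 1 array. Leaving out an array would remove the 2 comparisons that use it, so it was not run. Members dim on these arrays, such as Pgm2, Pfkp and Ppp1r3a, have ratios of low precision.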
